A study of Drosophila melanogaster with 33 samples.

Results

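Of the 16240 genes with linear reads in Drosophila heads, 46 had a high level in the youngest flies, a level at least 2-fold lower at day 10, and a level at day 50 at least 2-fold above that of day 10, in males and in females alike. The members were chosen on the means of the libraries of each sex and age. A gene had to have a day 0 mean of at least 50 normalized reads, a day 10 mean of at most 50% of its day 0 mean, and a day 50 mean at least 2 times its day 10 mean, and this had to hold in both sexes. The 8 heat shock genes whose symbols start with Hsp (Hsp70Aa, Hsp70Ab, Hsp70Bb, Hsp70Bc, Hsp68, Hsp26, Hsp23 and Hsp27) and the cuticle gene Cpr11A also met these limits, which made 55 genes, and were left out by name. A normalized read is a read assigned to a gene after scaling each library to a common depth. Since days 0, 10 and 50 chose the members, the values at these ages are given as a description with no test, and the tests are on days 20, 30 and 40 and on circular RNAs at days 20 and 40.

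The flies were of the wild-type strain CantonS, and heads were pooled within each sex and age. Male and female heads were collected at 6 ages, from day 0, which the study uses for young mated flies a few days after eclosion, to day 50 in steps of 10 days, with no treatment or transgene. Total RNA depleted of ribosomal RNA was sequenced from 33 libraries, 15 male (3 each at days 0, 30 and 40, and 2 each at days 10, 20 and 50) and 18 female (3 at each age), and male day 10 replicate 2 and male day 20 replicate 3 are absent because the study set them aside as outliers. The libraries are biological replicates per the study's methods. The design text speaks of brains and the sample labels of heads. Lists of 5 markers each for neurons, glia, photoreceptors, fat body, muscle and hemocytes had summed levels above 0 in each library, and no marker was at 0 throughout. The summed muscle markers (Mhc, Act88F, bt, sls and up) spanned 247855 to 251695 normalized reads in male and 362601 to 400270 in female heads at day 10, against 920527 to 1083920 in male and 1165440 to 1269140 in female heads at day 0, and the summed glial markers (repo, Eaat1, Gs2, nrv2 and moody) 133187 to 136924 in male and 113007 to 115236 in female heads at day 10, against 224582 to 235266 and 209637 to 214978 at day 0. A list of 5 digestive enzymes (alphaTry, betaTry, Jon25Bi, Jon66Ci and Amy-p) spanned 5125 to 5506 at day 40 against 1799 to 2320 at day 20 in males, and 1173 to 1782 against 418 to 607 in females. Neuron markers were also lower at day 10 than at day 0, but photoreceptor, fat body and hemocyte markers were higher, in both sexes. The summed fat body markers spanned 1078140 to 1143000 in males at day 10, against 176755 to 214959 at day 0. In females they spanned 1619800 to 1959170, against 336081 to 462911. They were lower at day 40 than at day 20 in both sexes. The part of these lists in the fall and return of the members was not tested. In such bulk samples, fewer cells of a type and less RNA per cell cannot be told apart.

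The libraries held between 28848182 and 94953552 linear reads, with a median of 57226092 and female day 0 replicate 2 the shallowest. The 2 male day 20 libraries stood apart from each other. They differed by more than 0.5 on the log2 scale in 33.1% of the tested genes, and the deviation of replicate 1 went with transcript GC content (Spearman's rho 0.61 over 12571 genes, as a description). With 2 libraries, the deviation of replicate 2 is the mirror of this (rho -0.61). These values therefore cannot say which of the 2 is the odd one. Male day 40 replicate 1 deviated in 12.6% of genes (rho 0.42), and the other libraries in 5.58% to 10.1%. For counts and for the genes given by library, results that rest on male days 20 and 40 are also given without male day 20 replicate 1 and day 40 replicate 1, when male day 20 is 1 library that is assumed to vary like the other groups. These 2 libraries are called GC-deviating below, which for day 20 is a choice of replicate 1 over replicate 2.

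In an adult fly, the days after eclosion are a time of tissue completion. The epidermis still adds layers to the cuticle, muscles mature, and genes that serve these steps are then turned down. The members include genes of cuticle and muscle, together with genes of redox and damage responses, cell death, signalling, actin organization and proteolysis. bnl (branchless) encodes a fibroblast growth factor ligand that guides the branching of the tracheal tubes. Gadd45 belongs to the growth arrest and DNA damage-inducible family, Strica is a caspase, Sid (Stress induced DNase) is a nuclease, and Rsod is a relative of superoxide dismutase. TwdlT is a Tweedle cuticle protein, Ccp84Ac a cuticle protein, TpnC47D a troponin C of muscle, Pxd a peroxidase, and sha (shavenoid) acts in the growth of epidermal hairs. qua (quail) is a villin-like actin-bundling protein, vas (vasa) a DEAD-box RNA helicase of the germ line, Oxp (Oxpecker) a protein of the HP1 family, Ir54a an ionotropic receptor, and Osi6 a member of the insect Osiris family. l(2)k05911 and CG33458 are annotated as serine proteases, CG15533 as an acid sphingomyelinase, and CG8785 is a predicted amino acid transporter. CG7130 is a DnaJ-type co-chaperone.

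The 46 members did not follow one course after the fall (the plot of level by age as a percent of day 0). They were sorted by how much of the day 0 mean had returned at day 50, after the values were seen and with no test. In 22 members, called recovered, the day 50 mean was at least 50% of the day 0 mean in both sexes. In 11 members, called residual, it was under 10% in both sexes, and the other 13 are called partial. The median recovered member stood at 36.0% of day 0 in males at day 10, then 41.3%, 60.2% and 68.8% at days 20, 30 and 40, and 110.7% at day 50. In females the same medians were 28.7%, 39.9%, 56.6%, 69.5% and 100.3%. These class medians rose at each later age, and most between days 40 and 50. Single members often did not rise at each age. Of all 46 members, the mean rose at every step from day 10 to day 50 in 12 in males and 16 in females. Medians of the partial class were 12.8%, 12.0%, 18.1%, 26.1% and 35.2% in males, and 7.07%, 8.86%, 11.8%, 16.4% and 24.9% in females. The residual class stayed near 0 from day 10 on, with day 50 medians of 0.552% of day 0 in males and 0.716% in females.

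**Figure D1:**
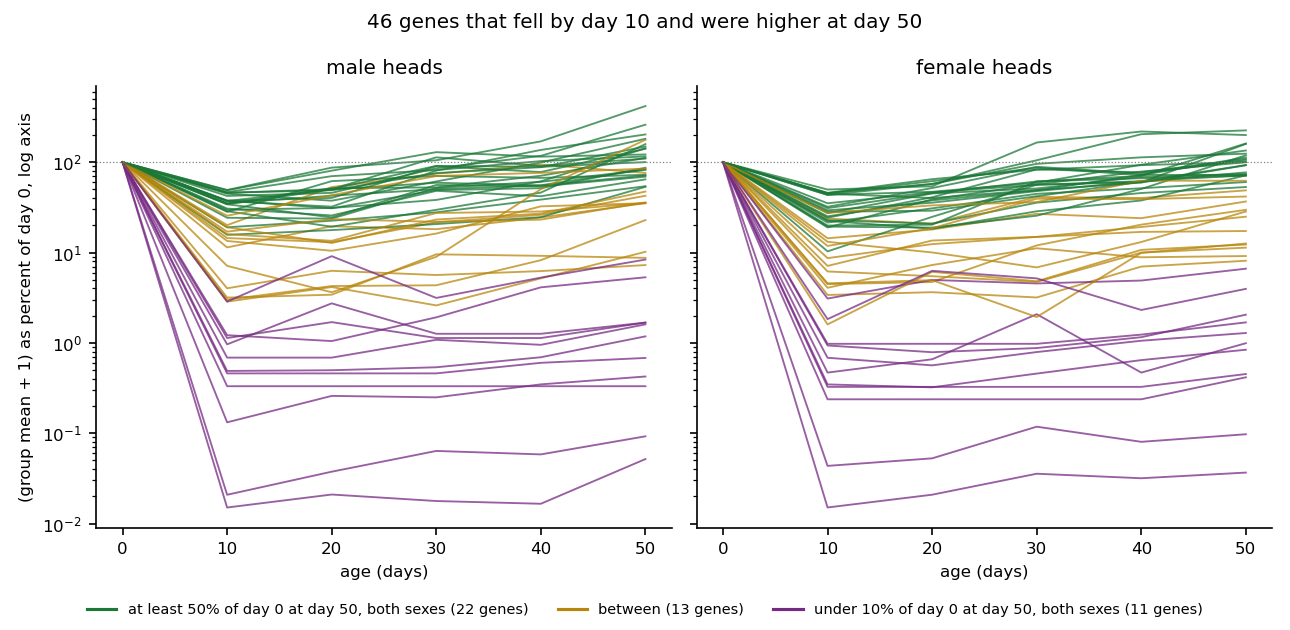
Group mean plus 1 of each of the 46 members by age, as a percent of the same at day 0, in male (left) and female (right) heads. The vertical axis is logarithmic, each line is a gene, colours are the recovered (green), partial (gold) and residual (purple) classes, and the dotted line marks the day 0 level. The 22 recovered lines end between 53.4% and 419% of day 0 in males and between 53.1% and 225% in females, while the 11 residual lines end under 10%.

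The lowest mean after day 0 fell at day 10 in 32 members in males and 34 in females, and at day 20 in 13 and 8. The highest mean after day 0 was at day 50 in 38 members in males and 39 in females. By the rule, every member already had a day 50 mean at least 2 times its day 10 mean, and the classes were cut on day 50. The next counts are therefore a description, with no share of all tested genes beside them. Every day 50 library lay above every day 10 library in 42 members in males, in 36 in females and in 36 in both. All 22 recovered members met this in both sexes, but only 11 of the 13 partial and 3 of the 11 residual members did. The day 50 mean was above the day 0 mean in 14 members in males, 11 in females and 10 in both. Those 10 were CG42675, Sid, l(2)k05911, CG9150, lncRNA:CR33942, CG10337, frac, CG11825, CG42876 and asRNA:CR42860.

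The limits of the rule ran through a continuous range. Just inside, l(2)k05911 had female means of 326.3 at day 10 against 655.7 at day 0, CG13058 a male day 0 mean of 50.4, and bnl male means of 3083 at day 50 against 1520 at day 10. Just outside, Ama had female means of 75.7 at day 50 against 38.0 at day 10, Neurochondrin female means of 2681 against 1347, and lncRNA:CR44442 a female day 0 mean of 49.6. Of the genes with at least 50 normalized reads at day 0 in both sexes (10464 genes), 880 fell in both sexes by the same limit, and 825 of these did not then rebound in both sexes.

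The residual class held the steepest falls. CG13043 in male heads had 23156, 20108 and 21592 normalized reads at day 0, 2.61 and 1.90 at day 10, 2.00 and 5.06 at day 20, 1.85, 1.73 and 4.93 at day 30, 1.16, 3.80 and 2.78 at day 40, and 4.82 and 15.5 at day 50. CG13043 in female heads had 21004, 23592 and 22077 normalized reads at day 0, 2.96, 2.95 and 1.13 at day 10, 3.96, 5.73 and 1.21 at day 20, 6.53, 3.69 and 10.5 at day 30, 6.68, 9.89 and 1.58 at day 40, and 5.46, 11.6 and 4.35 at day 50. No library after day 0 came near the day 0 levels. Pxd, the peroxidase, had 13608, 13364 and 14763 normalized reads at day 0, 0 and 3.79 at day 10, 0 and 8.43 at day 20, 3.71, 12.9 and 6.90 at day 30, 8.11, 9.49 and 3.71 at day 40, and 9.64 and 14.1 at day 50 in male heads. In female heads Pxd had 12099, 14639 and 12883 normalized reads at day 0, 9.86, 0.985 and 3.38 at day 10, 11.9, 1.15 and 4.85 at day 20, 22.8, 5.16 and 15.8 at day 30, 12.2, 5.49 and 11.1 at day 40, and 8.73, 11.6 and 15.2 at day 50. The rebound of these genes was a matter of a few reads. Over all day 50 libraries of a sex, CG13043 had 26 reads in males and 19 in females, and Pxd had 29 and 32.

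CG13058 fell to 0 in every female day 10 library. In males CG13058 had 61.1, 42.0 and 48.0 normalized reads at day 0, 0 and 0.948 at day 10, 3.998 and 3.37 at day 20, 0, 0.863 and 0.986 at day 30, 2.32, 1.90 and 0.927 at day 40, and 2.89 and 3.70 at day 50. CG13058 in females had 43.2, 68.4 and 49.2 normalized reads at day 0, 0, 0 and 0 at day 10, 0, 0 and 7.28 at day 20, 3.26, 2.21 and 0 at day 30, 0, 0 and 0.790 at day 40, and 0, 3.49 and 0 at day 50. Its rebound ratio, 6.96, can be given in males alone, since the female day 10 mean is 0, and rests on 8 reads at day 50 and 1 at day 10. CG31775 in male heads had 101, 80.3 and 80.7 normalized reads at day 0, 0 and 0 at day 10, 0.999 and 0 at day 20, 0, 0 and 0 at day 30, 0, 0 and 0 at day 40, and 0.964 and 0 at day 50. CG31775 in female heads had 98.4, 146 and 113 normalized reads at day 0, 2.96, 2.95 and 2.25 at day 10, 1.98, 6.88 and 6.07 at day 20, 1.09, 4.42 and 7.89 at day 30, 2.23, 7.69 and 4.74 at day 40, and 0, 3.49 and 17.4 at day 50. The gene was thus at or near 0 in males after day 0, while all but 1 of the female libraries after day 0 had some reads.

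The other residual members were TpnC47D, CG15023, CG15024, CG12607, Ir54a, Ccp84Ac and CG32248. TpnC47D, the troponin C, averaged 4259, 4.62 and 17.1 normalized reads at days 0, 10 and 50 in males, and 2559, 7.88 and 20.5 in females. It was also the residual member with the highest single library after day 0, at 17.8 in males and 27.7 in females. Ccp84Ac, the cuticle protein, averaged 1.33 at day 50 against 144.6 at day 0 in males, and 1.12 against 212 in females, with no read at day 10 in either sex. CG15024 met the rule in males only because a mean of 0 at day 50 is not less than 2 times a mean of 0 at day 10. Members with a day 10 mean of 0 numbered 5 in males and 5 in females, and 12 members in each sex had fewer than 30 reads over the day 50 libraries.

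TATAAA, the letters of the TATA box that positions transcription in many strongly regulated fly genes, stood on the gene's own strand starting 40 to 20 bases before the annotated start in 7 of the 11 residual promoters (63.6%). It stood there in 3 of 13 partial (23.1%) and 3 of 22 recovered promoters (13.6%). The same window held it in 130 of 814 genes that fell and did not rebound (16.0%) and in 734 of 12571 tested genes (5.84%). The match is a description of letters, not a mapped site. Other members given by library, among them CG8785, l(2)k05911, CG9150 and vas, hold TATAAA near the start only outside this window. The promoters printed below were chosen for TATAAA inside the window, so their alike positions follow from that choice. The 45 bases before and the first 15 bases from the start are given from the RefSeq genome (Release 6, dm6), with TATAAA in capitals, for members of the residual class (CG13043, 3L:16305856-16305915, minus strand; Pxd, 3R:17014531-17014590, plus; CG13058, 3L:16328796-16328855, plus; CG31775, 2L:14737755-14737814, minus), of the partial class (CG14572, 3L:21741489-21741548, plus; CG15533, 3R:30428775-30428834, plus) and of the recovered class (TwdlT, 3R:27049175-27049234, plus).
CG13043: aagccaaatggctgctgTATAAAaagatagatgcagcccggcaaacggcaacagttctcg
Pxd: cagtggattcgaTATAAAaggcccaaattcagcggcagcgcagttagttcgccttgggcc
CG13058: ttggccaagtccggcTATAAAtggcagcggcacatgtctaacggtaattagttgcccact
CG31775: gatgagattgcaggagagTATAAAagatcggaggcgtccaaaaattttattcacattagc
CG14572: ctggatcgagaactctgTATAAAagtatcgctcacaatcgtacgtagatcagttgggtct
CG15533: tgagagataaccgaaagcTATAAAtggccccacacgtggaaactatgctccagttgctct
TwdlT: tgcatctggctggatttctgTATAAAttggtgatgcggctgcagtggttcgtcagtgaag

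The question put to the later ages was whether the members were also higher at day 40 than at day 20, ages that the rule did not use. Both ages lie between day 10 and day 50, over which the rule required a rise. Higher levels at day 40 are therefore made likely by the choice of members. The shares of all tested genes are from genes not chosen in this way. In male heads 25 of the 46 members were called higher at day 40 (limma's moderated test, with p-values adjusted by Benjamini-Hochberg over 12685 genes and held to 0.05, and with log2 change above 0.5), where 7.22% of all tested genes were called higher. In female heads 22 members were called higher, where 3.2% of all tested genes were. In the other direction, 0 members were called lower in males (4.38% of all genes; 1 member at an unadjusted p under 0.05) and 0 in females (2.11% of all genes; 0 members), and edgeR and DESeq2 called 0 lower in each sex. The median log2 change was 0.80 in males and 0.85 in females, against -0.01 and -0.04 over all tested genes. The male count depends on the male day 20 libraries, of which 1 is left in each of the fits that follow. Without replicate 2, more of all tested genes were called than in the main fit. Fewer members were called without replicate 1, and fewer also without both male libraries that deviated with GC content. The 8 male calls lost without both were CG14572, CG42876, CG11825, Sid, Strica, Ir54a, lncRNA:CR33942 and lncRNA:CR45973.

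The members passed the minimum mean of 10 normalized reads with day 0 included, and 13 of them passed only through day 0, the age at which the rule made them high. These were CG13748, CG15533, sha and all residual members other than TpnC47D. With the minimum set on the libraries after day 0, 33 members were tested, and 24 were called higher in males and 22 in females. The call of Ir54a in males was the one lost, a gene with a mean of 2.50 normalized reads after day 0. Split by class, 17 of 22 recovered members were higher in males and 19 of 22 in females, against 7 and 3 of 13 partial members (the plot of the change from day 20 to day 40). Since the classes were cut on the day 50 level and the residual members have few reads, this split is a description. Every day 40 library lay above every day 20 library for 29 members in males and 30 in females, where 14.9% and 16.8% of all tested genes did so. The means stepped up from day 20 over day 30 to day 40 in 24 members in males and 26 in females (18.8% and 17.4% of all tested genes).

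**Figure D2:**
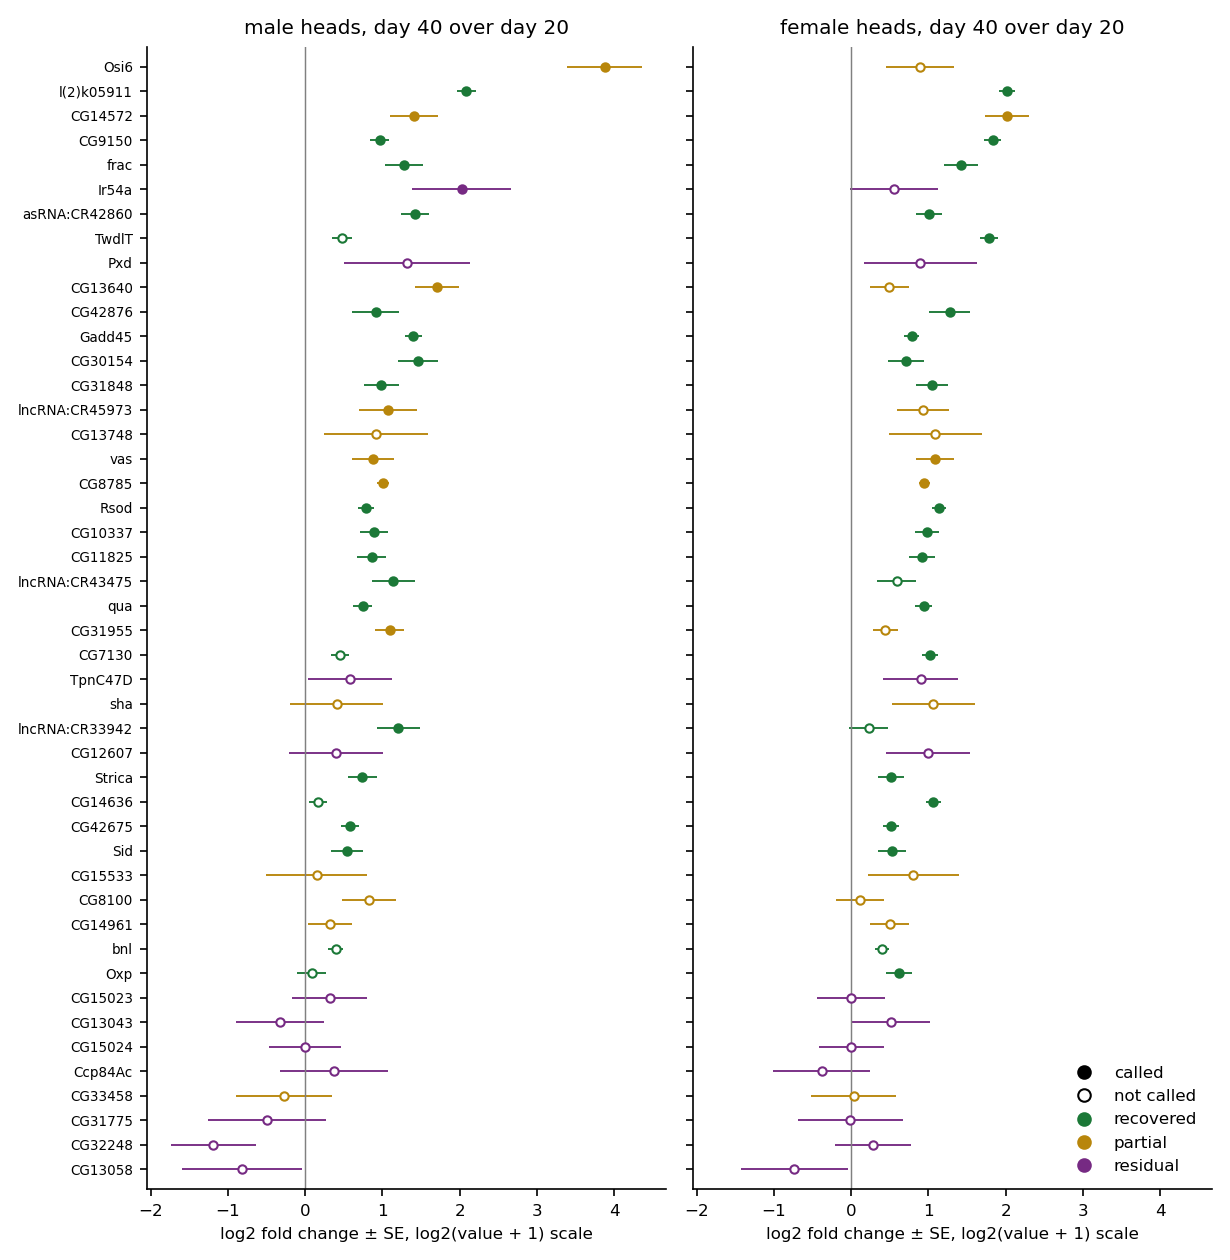
Log2 fold change of day 40 over day 20 for each of the 46 members in male (left) and female (right) heads, with standard errors from the limma fit. Filled points passed the test, colours are classes, and the vertical line marks 0. The 25 calls in males and the 22 in females all lie to the right of 0.

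In both sexes 18 members were called higher, as were 1.82% of all tested genes. l(2)k05911, annotated as a serine protease, came first when members were ranked by the mean of the male and female changes. In male heads l(2)k05911 had 665, 516 and 639 normalized reads at day 0, 229.6 and 219 at day 10, 205 and 185 at day 20, 517, 515 and 436 at day 30, 867, 777 and 848 at day 40, and 1177 and 1289 at day 50. In female heads l(2)k05911 had 673, 664 and 630.2 normalized reads at day 0, 363, 281 and 335 at day 10, 363, 311 and 389 at day 20, 1123, 1215.36 and 915 at day 30, 1461, 1454 and 1394 at day 40, and 1238, 1325 and 1371 at day 50. Day 40 and day 20 libraries did not overlap in either sex, and the log2 change was 2.09 (SE 0.118, adjusted p 6.72e-13) in males and 2.02 (SE 0.106, adjusted p 3.24e-13) in females. CG14572 in male heads had 425, 401 and 526 normalized reads at day 0, 14.3 and 12.3 at day 10, 12.0 and 16.9 at day 20, 40.8, 27.6 and 58.2 at day 30, 53.3, 30.4 and 38.0 at day 40, and 34.7 and 42.2 at day 50. CG14572 in female heads had 325, 311 and 479.6 normalized reads at day 0, 12.8, 20.7 and 13.5 at day 10, 14.5, 19.5 and 15.8 at day 20, 39.2, 42.0 and 50.0 at day 30, 51.2, 118 and 56.1 at day 40, and 90.6, 127 and 112 at day 50. Its log2 change was 1.41 (SE 0.315, adjusted p 0.00113) in males and 2.02 (SE 0.282, adjusted p 6.12e-06) in females, again with no overlap. Without both GC-deviating libraries l(2)k05911 kept a male change of 2.13, while CG14572 had 0.97 and was not called (adjusted p 0.0701). At day 50 CG14572 stood at 8.53% of day 0 in males and 29.5% in females.

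CG9150 ended far above its starting level. In male heads CG9150 had 392, 422 and 389 normalized reads at day 0, 214 and 180.1 at day 10, 375 and 324 at day 20, 393, 455 and 416 at day 30, 758, 671 and 621 at day 40, and 1621 and 1742 at day 50. In female heads CG9150 had 419, 375 and 430.5 normalized reads at day 0, 157, 185 and 214 at day 10, 255, 244 and 204 at day 20, 420.0, 474 and 393 at day 30, 768, 832 and 905 at day 40, and 839, 931 and 990.4 at day 50. The day 40 over day 20 change was 0.97 (SE 0.122, adjusted p 7.80e-07) in males (0.99 without both GC-deviating libraries) and 1.83 (SE 0.110, adjusted p 3.85e-12) in females. At day 50 CG9150 stood at 419% of day 0 in males and 225% in females. frac (faulty attraction) in male heads had 174, 166 and 193 normalized reads at day 0, 62.6 and 37.9 at day 10, 23.98 and 43.0 at day 20, 53.8, 49.2 and 53.3 at day 30, 86.9, 57.9 and 99.2 at day 40, and 271 and 294 at day 50. In female heads frac had 181, 201 and 173 normalized reads at day 0, 39.5, 37.4 and 28.1 at day 10, 40.2, 36.7 and 25.5 at day 20, 43.5, 50.1 and 46.02 at day 30, 109, 68.1 and 102 at day 40, and 238, 226 and 199 at day 50. Most of its rebound came after day 30 in both sexes. The log2 change was 1.28 (SE 0.248, adjusted p 0.000257) in males, or 0.80 without both libraries (adjusted p 0.0477), and 1.42 (SE 0.221, adjusted p 2.86e-05) in females.

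asRNA:CR42860, an antisense RNA, had 96.2, 104 and 110.5 normalized reads at day 0, 45.7 and 40.8 at day 10, 32.98 and 60.7 at day 20, 86.2, 94.9 and 84.8 at day 30, 112, 118 and 135 at day 40, and 309 and 233 at day 50 in male heads. In female heads asRNA:CR42860 had 141, 169.9 and 152 normalized reads at day 0, 57.2, 73.9 and 68.7 at day 10, 71.9, 84.8 and 59.5 at day 20, 88.1, 96.6 and 88.1 at day 30, 157, 138 and 138 at day 40, and 202, 217 and 205 at day 50. Its log2 change was 1.42 (SE 0.181, adjusted p 8.76e-07) in males, or 1.04 without both libraries, and 1.01 (SE 0.162, adjusted p 4.30e-05) in females. It lies opposite the muscle gene sls, whose own means in males were 239512, 117939 and 174049 at days 0, 10 and 50, and in females 250951, 171342 and 177179. How the counting treated strand is not given in the sources used here, so reads of such overlapping pairs are uncertain. CG42876 in male heads had 177, 159.7 and 161 normalized reads at day 0, 62.6 and 59.7 at day 10, 57.0 and 109 at day 20, 201, 178 and 185 at day 30, 136, 132 and 185 at day 40, and 176 and 189 at day 50. CG42876 in female heads had 146, 179 and 135 normalized reads at day 0, 6.90, 19.7 and 18.0 at day 10, 40.9, 33.2 and 37.6 at day 20, 122, 80.4 and 55.2 at day 30, 96.8, 94.5 and 82.999 at day 40, and 249.95, 231 and 252 at day 50. The log2 change was 0.91 (SE 0.301, adjusted p 0.0221) in males and 1.27 (SE 0.269, adjusted p 0.000983) in females. The male call was lost without both libraries (0.52, adjusted p 0.366), without day 20 replicate 1 alone (0.45) and without day 40 replicate 3 (0.76).

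**Figure D3:**
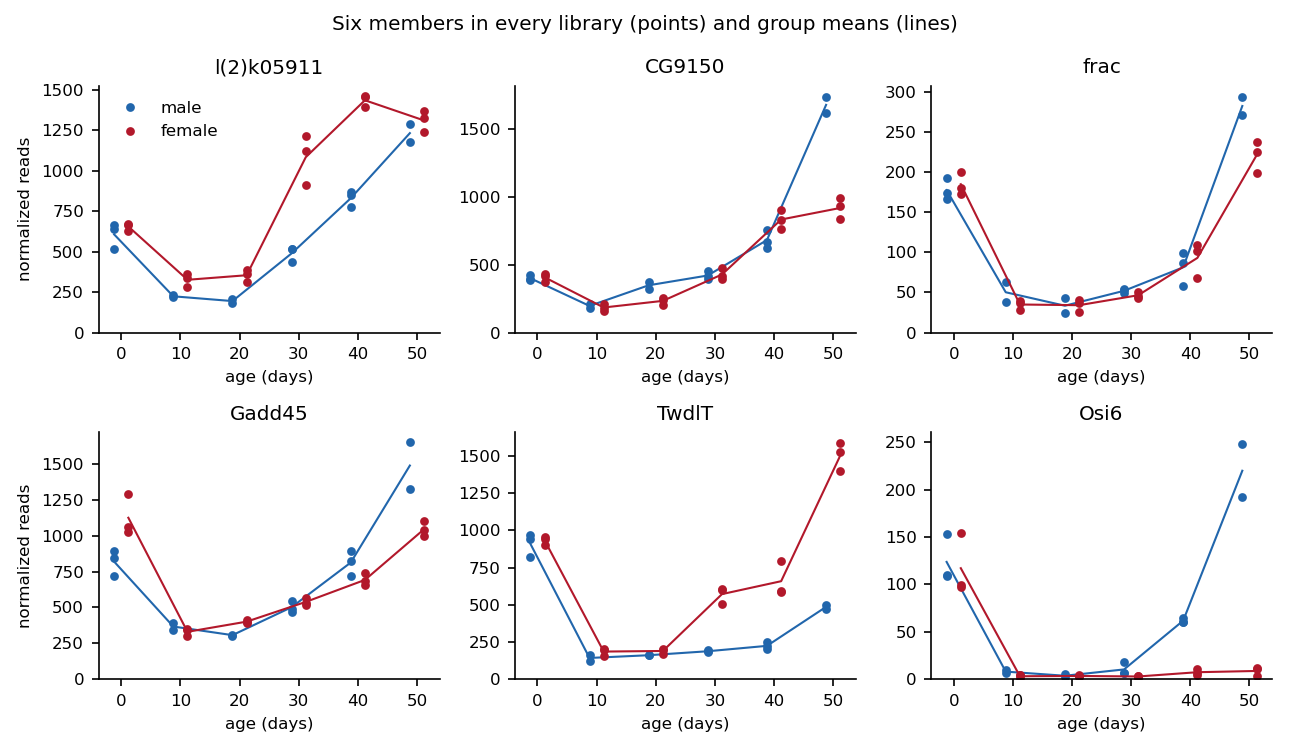
Normalized reads of l(2)k05911, CG9150, frac, Gadd45, TwdlT and Osi6 by age. Points are libraries, lines join group means, and males are blue and females red. l(2)k05911, CG9150, frac and Gadd45 climb in both sexes after day 20, TwdlT climbs further in females and Osi6 in males.

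Among the members with the most normalized reads (not scaled per length), CG8785, the predicted amino acid transporter, had 4293, 4298 and 4591 normalized reads at day 0, 665 and 604 at day 10, 543 and 601 at day 20, 951, 982 and 913 at day 30, 1182, 1090.0 and 1174 at day 40, and 1634 and 2099.9 at day 50 in male heads. In female heads CG8785 had 3100.0, 3444 and 3349.9 normalized reads at day 0, 827, 772 and 751 at day 10, 668, 730.2 and 665 at day 20, 1375, 1307 and 1398 at day 30, 1277, 1348 and 1349 at day 40, and 1718, 1536 and 1572 at day 50. The change was 1.01 (SE 0.0794, adjusted p 1.99e-10) in males (0.91 without both libraries) and 0.95 (SE 0.0710, adjusted p 1.73e-10) in females, with a female step between days 20 and 30 and a flat stretch between days 30 and 40. Rsod, the superoxide dismutase relative, had 1832, 1754 and 1772 normalized reads at day 0, 355 and 323 at day 10, 448 and 355 at day 20, 555, 455 and 481 at day 30, 744, 648 and 673 at day 40, and 910.4 and 1024 at day 50 in male heads. In female heads Rsod had 1838, 1853 and 1636 normalized reads at day 0, 420.2, 402 and 389 at day 10, 374, 323 and 414 at day 20, 625, 664 and 610.0 at day 30, 768, 857 and 803 at day 40, and 969, 1001 and 859 at day 50. Its change was 0.78 (SE 0.103, adjusted p 1.32e-06) in males (0.89 without both) and 1.13 (SE 0.0919, adjusted p 7.53e-10) in females. CG42675 had 1242, 1282 and 1291 normalized reads at day 0, 595 and 591 at day 10, 1067 and 715 at day 20, 1014, 1048 and 1063 at day 30, 1499, 1179 and 1248 at day 40, and 1562 and 1387 at day 50 in male heads. In female heads CG42675 had 1382, 1529 and 1501 normalized reads at day 0, 701, 614 and 705 at day 10, 965, 882 and 1017 at day 20, 1184, 1237 and 1225 at day 30, 1544, 1323 and 1226 at day 40, and 1401, 1452 and 1584 at day 50. CG42675 passed only narrowly, with 0.57 (SE 0.116, adjusted p 0.000400) in males, or 0.76 without both, and 0.51 (SE 0.104, adjusted p 0.000666) in females. Its male call was lost without day 20 replicate 2 (0.29) or day 40 replicate 1 (0.47), and its female call without day 20 replicate 2 (0.45) or day 40 replicate 1 (0.42).

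vas, the germ line helicase, had 72.5, 46.7 and 68.2 normalized reads at day 0, 14.3 and 16.1 at day 10, 36.0 and 16.9 at day 20, 46.4, 36.2 and 48.3 at day 30, 62.6, 42.7 and 37.1 at day 40, and 60.8 and 45.2 at day 50 in male heads. In female heads vas had 143, 124 and 128 normalized reads at day 0, 14.8, 15.8 and 13.5 at day 10, 27.0, 17.2 and 26.7 at day 20, 57.7, 43.5 and 52.6 at day 30, 59.0, 47.2 and 45.8 at day 40, and 60.03, 43.0 and 59.8 at day 50. The change was 0.88 (SE 0.275, adjusted p 0.0162) in males, or 1.19 without both GC-deviating libraries, and the call was lost without male day 20 replicate 2 (0.36) or male day 40 replicate 1 (0.67). In females it was 1.09 (SE 0.246, adjusted p 0.00193). The gene solo, on the same strand, overlaps vas. Its means were 9.21, 7.29 and 30.1 in males and 20.2, 4.64 and 22.4 in females at days 0, 10 and 50, so reads may be split between them. CG15533, the acid sphingomyelinase, had a large rebound ratio on small values. In male heads CG15533 had 88.0, 87.8 and 112 normalized reads at day 0, 2.61 and 0.948 at day 10, 0.999 and 5.06 at day 20, 1.85, 1.73 and 0.986 at day 30, 9.27, 1.90 and 0.927 at day 40, and 9.64 and 8.14 at day 50. In female heads CG15533 had 64.8, 97.1 and 84.0 normalized reads at day 0, 0, 0.985 and 0 at day 10, 5.28, 5.73 and 1.21 at day 20, 5.44, 2.21 and 1.31 at day 30, 3.34, 13.2 and 7.11 at day 40, and 10.9, 4.65 and 12.0 at day 50. Its day 40 over day 20 change was 0.15 (SE 0.658, adjusted p 0.885) in males and 0.81 (SE 0.589, adjusted p 0.402) in females.

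The remaining members called in both sexes were Gadd45, CG30154, CG31848, CG10337, CG11825, qua, Strica and Sid. Gadd45 had a male change of 1.40 (SE 0.110, adjusted p 1.76e-10), or 1.31 without both GC-deviating libraries, and a female change of 0.79 (SE 0.0980, adjusted p 1.04e-06). qua, the villin-like gene, had 0.74 in males (0.55 without both) and 0.94 in females. CG10337 had 0.89 in males (0.59 without both) and 0.98 in females. CG10337 lies opposite ref(2)P, whose means were 18906 at day 40 against 17570 at day 20 in males and 19474 against 16753 in females. CG31848 lies opposite CG44085, which itself averaged 33356, 10629 and 20147 at days 0, 10 and 50 in males and 32460, 15303 and 19263 in females. Reads of these pairs, too, cannot be told apart if strand was not used in the counting. In females the calls of CG30154, Sid and Strica were lost when single libraries were left out, down to 0.53, 0.40 and 0.32 (without day 40 replicate 3 for CG30154 and Sid and day 40 replicate 1 for Strica). Called in males and not in females were CG13640, CG31955, Ir54a, Osi6, lncRNA:CR33942, lncRNA:CR43475 and lncRNA:CR45973, and in females and not in males CG14636, CG7130, Oxp and TwdlT. Of all tested genes, 7.22% were called higher in males, 3.2% in females and 1.82% in both. A call in 1 sex alone is no test of a sex difference. Of the members just named, only Osi6, CG14636, CG7130 and TwdlT were called when that difference itself was tested (below). The 17 members called in neither sex were bnl, CG14961, CG8100, sha, CG13748, CG15533, CG33458 and all residual members other than Ir54a. For bnl the change was 0.39 in males and 0.40 in females, which is under the fold limit although the adjusted p was 0.00397 and 0.00179.

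Males and females were then compared at the ages the rule did not use. At day 20, 5 members were called higher in males (4.89% of all tested genes) and 10 lower (11.7%). This count rests on 1 library, since without male day 20 replicate 1 it was 5 in all. Of the 15 calls, those of CG8100, Strica, l(2)k05911 and CG42876 held without it and without both GC-deviating libraries. At day 30, 4 were higher (4.08%) and 6 lower (8.18%), and at day 40, 3 were higher (3.89%) and 8 lower (6.33%). With the minimum set on the libraries after day 0, the calls in either direction were 13, 9 and 10 at days 20, 30 and 40. Members called at 2 or more of these ages were CG8100, CG31775, Osi6, TwdlT, CG42876, Strica, l(2)k05911, CG10337 and qua (the plot of male over female levels), of which CG10337, qua and CG31775 lost the day 20 call without both libraries. When each library was scaled to its total reads, the higher and lower counts were 5 and 5 at day 20, 6 and 3 at day 30, and 3 and 6 at day 40, so the balance of directions depends on the scaling.

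CG8100 had 615, 545 and 659 normalized reads at day 0, 109.6 and 133 at day 10, 318 and 325 at day 20, 501, 429 and 429 at day 30, 543, 549 and 622 at day 40, and 549 and 374 at day 50 in male heads. In female heads CG8100 had 578, 662 and 614 normalized reads at day 0, 28.6, 30.5 and 13.5 at day 10, 50.8, 41.3 and 40.0 at day 20, 81.6, 61.9 and 60.5 at day 30, 22.3, 62.6 and 76.7 at day 40, and 75.3, 37.2 and 54.4 at day 50. The sexes overlapped at day 0, and from day 10 on every male library lay above every female library. Male over female, the log2 fold change was 2.85 (SE 0.347, adjusted p 3.34e-07) at day 20, 2.73 (SE 0.310, adjusted p 7.61e-08) at day 30 and 3.55 (SE 0.310, adjusted p 1.23e-09) at day 40, and 2.86 and 3.59 at days 20 and 40 without both libraries. CG42876, given above, was also higher in males at all 3 ages, by 1.07, 1.19 and 0.70 on the log2 scale, with no overlap between the sexes. Its day 20 call was lost without male day 20 replicate 2 (0.60), and its day 40 call when any 1 of the 6 day 40 libraries was left out (0.55 to 0.79). At day 50 its order was the other way round, with 182 in males and 244.5 in females on average.

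Osi6, of the Osiris family, had 110.0, 108 and 153 normalized reads at day 0, 9.13 and 6.64 at day 10, 2.00 and 5.06 at day 20, 17.6, 6.04 and 6.90 at day 30, 60.2, 59.8 and 64.9 at day 40, and 192 and 248 at day 50 in male heads. In female heads Osi6 had 97.6, 154 and 99.1 normalized reads at day 0, 3.95, 3.94 and 1.13 at day 10, 3.96, 2.29 and 3.64 at day 20, 3.26, 3.69 and 1.31 at day 30, 4.45, 11.0 and 6.32 at day 40, and 12.0, 10.5 and 3.26 at day 50. At day 50 the male mean was 178% of day 0 and the female mean 7.33%. The male over female log2 fold change was 0.01 at day 20, 1.49 (SE 0.439, adjusted p 0.00740) at day 30 and 3.00 (SE 0.439, adjusted p 4.34e-06) at day 40 (3.02 without both libraries). The day 30 call was lost without male day 30 replicate 1 (1.06) or female day 30 replicate 3 (1.18). Of the other tested Osiris genes none met the rule. CG31775, at or near 0 in males and at a few reads in females, had fitted differences of -1.96, -2.22 and -2.44 at days 20, 30 and 40 that depend on the pseudocount of 1 and are no bounds. It passed the minimum mean only through day 0, and with the minimum on later libraries it was not tested.

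TwdlT, the Tweedle cuticle gene, had 939.8, 820.0 and 969 normalized reads at day 0, 162 and 122 at day 10, 159 and 162 at day 20, 196, 186 and 179.5 at day 30, 248, 219 and 203 at day 40, and 472 and 499.6 at day 50 in male heads. In female heads TwdlT had 899, 942 and 958 normalized reads at day 0, 198, 158 and 199 at day 10, 197, 199 and 171 at day 20, 602, 606 and 506 at day 30, 588, 792 and 594 at day 40, and 1585, 1398 and 1527 at day 50. The male over female log2 fold change was -0.23 at day 20, -1.60 (SE 0.116, adjusted p 1.61e-11) at day 30 and -1.55 (SE 0.116, adjusted p 4.96e-11) at day 40. At day 50 TwdlT stood at 53.4% of day 0 in males and 161% in females. Strica, the caspase, had 478, 517 and 469.7 normalized reads at day 0, 183 and 116 at day 10, 98.9 and 151 at day 20, 226, 257 and 222 at day 30, 203, 211 and 200.2 at day 40, and 342 and 288 at day 50 in male heads. In female heads Strica had 605, 629 and 622 normalized reads at day 0, 167, 214 and 194 at day 10, 282, 282 and 278 at day 20, 474, 341 and 319 at day 30, 532, 368 and 334 at day 40, and 424, 502 and 387 at day 50. Male libraries lay below all female libraries at days 20, 30 and 40, with log2 fold changes of -1.19 (SE 0.190, adjusted p 1.41e-05), -0.67 (SE 0.170, adjusted p 0.00245) and -0.97 (SE 0.170, adjusted p 4.87e-05). The day 30 call was lost without female day 30 replicate 1 (-0.49). l(2)k05911 was lower in males at the same 3 ages, by -0.86, -1.14 and -0.79 with no overlap, and at day 50 the means were 1233 in males and 1311 in females.

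**Figure D4:**
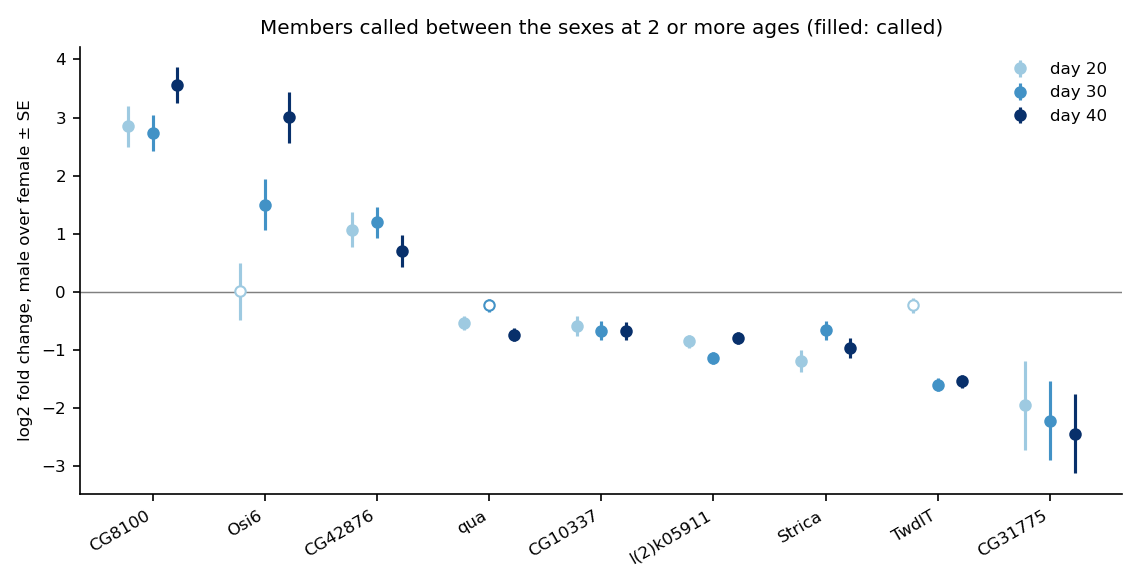
Log2 fold change of male over female heads at days 20, 30 and 40 for the 9 members called at 2 or more of these ages, with standard errors from the limma fit. Filled points passed the test and the line marks 0. CG8100 and CG42876 lie above 0 at all 3 ages, Osi6 rises away from 0 with age, and Strica and l(2)k05911 lie below 0 at all 3, as does CG31775, which has few reads and passed the minimum mean only through day 0.

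For 6 members the change between days 20 and 40 differed between the sexes when the difference itself was tested, where 3.32% of all tested genes did (1.93% upward and 1.39% downward). Male minus female change was above 0 for Osi6 (2.99, SE 0.658, adjusted p 0.00486) and Gadd45 (0.61, SE 0.147, adjusted p 0.00975). It was below 0 for TwdlT (-1.31, SE 0.174, adjusted p 1.54e-05), CG14636 (-0.90, SE 0.151, adjusted p 0.000337), CG9150 (-0.87, SE 0.164, adjusted p 0.00116) and CG7130 (-0.56, SE 0.157, adjusted p 0.0275). Without both GC-deviating libraries the values were 2.50 for Osi6, 0.53 for Gadd45, -1.40 for TwdlT, -0.72 for CG14636, -0.84 for CG9150 and -0.56 for CG7130, all still called, and without male day 20 replicate 2 the count was 12, in a fit that called 20.4% of all tested genes. Gadd45 in males had 303 and 310.3 normalized reads at day 20, 466, 547 and 492 at day 30, and 891, 826 and 722 at day 40. In females Gadd45 had 412, 401 and 389 normalized reads at day 20, 532, 564 and 519 at day 30, and 658, 681 and 737 at day 40. The male day 20 libraries were below and 2 of the 3 male day 40 libraries above those of females. CG14636 in males had 309.8 and 237 normalized reads at day 20, 321, 319 and 335 at day 30, and 312, 292 and 309.6 at day 40. In females CG14636 had 184, 174 and 149 normalized reads at day 20, 251, 236 and 248 at day 30, and 304, 364 and 398 at day 40. CG7130, the co-chaperone, in males had 238 and 201 normalized reads at day 20, 224, 229 and 218 at day 30, and 351, 273 and 281 at day 40. In females CG7130 had 218, 228 and 197 normalized reads at day 20, 317, 322 and 308 at day 30, and 391, 437 and 481 at day 40. For both genes female heads gained more between these ages.

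bnl, the growth factor ligand, was the sole member whose circular RNAs passed the filter on abundance, with 2 of the 2775 circles tested. Circular RNAs are counted from reads that cross a back-splice junction. There an exon's end is spliced to the beginning of that exon or of one upstream. The study's linear counts use every read inside a transcript. Linear bnl may therefore include reads from inside the circle, and their share was not measured. The main circle spans 3R:19827654-19829042 on the minus strand, which is exon 2 of bnl, of 1389 bases. The junction is printed here with 24 bases on each side and the 4 on each side of the join in capitals, since its reads define the circle. The stretch runs from the exon's end (3R:19827654-19827677) into its start (3R:19829019-19829042).
bnl circle junction: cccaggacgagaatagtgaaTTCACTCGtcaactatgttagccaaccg

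Linear bnl had 4510.0, 4187 and 4271 normalized reads at day 0, 1514 and 1526 at day 10, 1504 and 2176 at day 20, 2244, 2188 and 2096 at day 30, 2156, 2567 and 2424 at day 40, and 3063 and 3102 at day 50 in male heads. In female heads linear bnl had 3699, 3848 and 3988 normalized reads at day 0, 1423, 1316 and 1309 at day 10, 1798, 1822 and 1730.1 at day 20, 2045, 2198 and 2240.3 at day 30, 2029, 2447 and 2629 at day 40, and 2803, 2803 and 2662 at day 50. The circle averaged 68.5, 48.5, 54.4, 71.1, 100.7 and 180.8 normalized reads in males from day 0 to day 50. In females it averaged 74.4, 33.2, 43.3, 72.4, 100.4 and 155.9. Like the linear RNA, the circle was lowest at day 10, but by day 50 it stood at 264% of day 0 in males and 209% in females, where linear bnl stood at 71.3% and 71.7%. As a percent of the linear reads, the circle made up 1.58, 3.19, 2.96, 3.27, 4.23 and 5.86 in males and 1.94, 2.46, 2.43, 3.35, 4.24 and 5.66 in females from day 0 to day 50. In the test of day 40 against day 20, the circle changed by 0.88 on the log2 scale in males (SE 0.256, adjusted p 0.0370, 4.72% of all circles called higher) and by 1.22 in females (SE 0.229, adjusted p 0.000969, 4.04% called higher). The male call was lost in every fit with 1 library left out. The second circle, 3R:19796214-19828089, had few reads and was not called at these ages (adjusted p 0.477 in males and 0.341 in females).

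**Figure D5:**
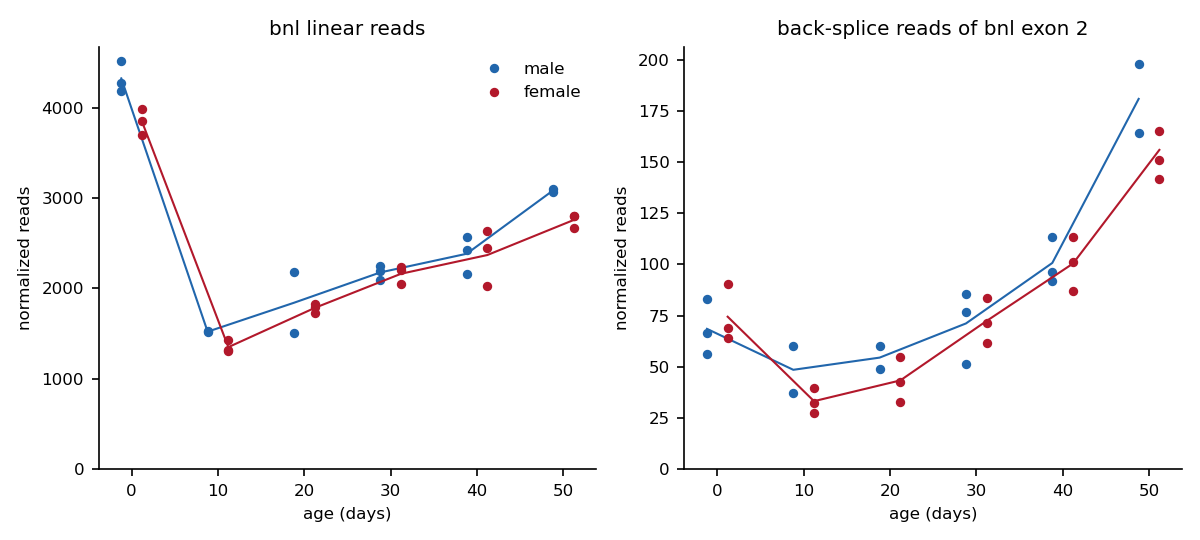
Normalized linear reads of bnl (left) and normalized back-splice reads of its exon 2 (right) by age. Points are libraries, lines join group means, and males are blue and females red. Female day 50 replicates 1 and 2 held the same back-splice reads before scaling. They are drawn as separate points on the right but averaged and counted as 1 sample in the mean. Both have their lowest mean at day 10, and the circle ends above its day 0 level (264% of it in males, 209% in females) while the linear RNA does not (71.3% and 71.7%). In males the circle's day 10 libraries overlap those of day 0.

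The members were then compared in features that the rule did not use. Promoter letters were searched on both strands from 250 bases before to 50 after the start in all members and in 12571 tested genes. TATAAA was present in 30 of 46 members (65.2%) and 42.6% of tested genes, and the initiator letters TCAGTT in 32.6% and 25.1%. The replication-related element TATCGATA, a mark of many constitutively used promoters, was in 1 member (2.17%) and in 9.38% of tested genes, and GGTCACACT was in 0 members and 6.31%. The core of the antioxidant response element, TGACNNNGC, was in 9 members (19.6%) and 8.85% of tested genes, and the AP-1 letters TGANTCA in 7 (15.2%) and 6.39%. These 2 motifs can overlap. The overlapping letters were read from the promoter of Rsod, so the match of Rsod was fixed by that choice. The counts of these letters are a description. Rsod and CG10337 hold the 9 letters that spell both at once, as do 14 of the 12571 tested genes (0.111%), and the 40 bases around the match are shown with these letters in capitals (Rsod, 3R:30171333-30171372, minus strand; CG10337, 2L:19547050-19547089, minus). Rsod has the letters on its own strand and CG10337 on the other.
Rsod: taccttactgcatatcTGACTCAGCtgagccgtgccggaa
CG10337: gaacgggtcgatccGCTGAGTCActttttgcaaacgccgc

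The heat shock element (3 spaced blocks of GAA or its complement) was in 0 members and 0.453% of tested genes, whereas 5 of the 8 heat shock genes left out by name had it. GTAAACA, a letter string bound by FOXO factors, was in 0 members and 9.56% of tested genes. No match says only that these letters are not in this window.

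In position, 0 of the 46 lay on the X chromosome, which holds 16.2% of the tested genes and 14.1% of the genes that fell and did not rebound. They lay on 2L (9), 2R (12), 3L (13) and 3R (12). Protein-coding genes made up 42, and the other 4 were long noncoding or antisense RNAs. The genes were compact, with 27 of 46 (58.7%) holding 1 or 2 exons against 38.6% of tested genes, and a median spliced length of 1257.5 against 1733 bases. Within 50 kilobases of another member lay 10 members. CG15023, CG15024, CG12607 and CG32248 lie on 3L, as do CG13043 and CG13058, and these are all residual. l(2)k05911 and CG31848 are neighbours too. Another gene overlaps 15 members on the opposite strand and 3 on the same strand. Oxp lies within CG10936, whose means did not rebound with it, at 15432, 693 and 319 in males and 13852, 568 and 279.6 in females at days 0, 10 and 50.

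Genes of the same families mostly did not share the whole course. Across all tested genes, 977 of 12685 (7.70%) were at or below 50% of day 0 at day 10 in both sexes. Between days 20 and 40, 7.22% of all tested genes were called higher and 4.38% lower in males. In females the shares were 3.2% and 2.11%. The family counts that follow are a description beside these shares, and no test was run on families. Of the cuticle genes without the Cpr prefix 19 of 26 did so, with TwdlT and Ccp84Ac as the members, and between days 20 and 40 they had 2 higher and 5 lower calls in males and 3 higher and 1 lower in females. Of 25 muscle genes 17 did so, with TpnC47D as the member, and 6 were called higher and 1 lower in males, against 0 higher and 1 lower in females. All 32 tested proteasome genes had fallen by day 10 and none met the rule. Of the heat shock genes 11 of 18 had fallen, and between days 20 and 40 they had 9 higher calls in males and 5 in females. Of 21 stress kinase and activity-response genes, which include Gadd45, 6 had fallen, and 7 were called higher in males and 4 in females. Of 10 Osiris genes 5 had fallen, and 1 (Osi6) was called higher and 2 lower in males, against 0 higher and 1 lower in females.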

How the data were processed

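Head RNA of CantonS flies was sequenced as ribosome-depleted total RNA. The authors aligned reads with STAR to dm6, counted linear reads per gene with featureCounts and back-spliced reads with find_circ2, and deposited both in one table after scaling by joint DESeq2 size factors. The deposited unit is a signal (normalized reads), not whole counts. Versions and the strand setting are not given in the sources used here. All columns mapped to samples (0 not used). The members and gene lists were chosen with earlier results of these data known.

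For the main test, log2(value + 1) was fitted in limma 3.58.1 (trend and robust options, R 4.3.3) with 12 group means over 33 libraries, for genes with a mean of at least 10 (12685 genes, and all 46 members, of which 33 reach this mean without day 0). Fold changes are on this scale, which understates changes of low genes. A gene was called where its p, adjusted by Benjamini-Hochberg within the comparison, was under 0.05 and its log2 change exceeded 0.5 in size, the limits the study used. Back-splice reads were fitted in the same way, after averaging female day 50 replicates 1 and 2, whose back-splice reads before scaling were identical and which were counted as 1 sample. Whole reads recovered from the steps of the values went into edgeR 4.0.16 and DESeq2 1.42.0 as alternatives. Male day 20 replicate 1 was left out of both, although its values too stood at whole steps (100%). The fit was tested on simulated data. Genes printed by library were the 6 with the highest mean, the 6 with the largest rebound ratio, taking the smaller of the sexes or the one ratio where the other sex has 0 at day 10, the first 6 by mean change among those called in both sexes between days 20 and 40, the first 6 called between the sexes at 2 or more ages, and those with a called circle. The 6 members of the sex difference were added by their test. Promoters, exons and positions came from RefSeq and Ensembl annotation of Release 6 of the genome.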

Additional observations from a re-analysis of the deposited data

Results flagged for a closer look

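In 6 members the change between days 20 and 40 differed between male and female heads by a test of the difference itself. The male minus female difference in log2 change was 2.99 for Osi6 (log2 changes 3.88 in males and 0.89 in females), 0.61 for Gadd45 (1.40 and 0.79), -1.31 for TwdlT (0.47 and 1.78), -0.90 for CG14636 (0.17 and 1.06), -0.87 for CG9150 (0.97 and 1.83) and -0.56 for CG7130 (0.45 and 1.02). The calls of Gadd45, TwdlT, CG14636 and CG9150 held in every alternative tried, and those of Osi6 and CG7130 did not, with an adjusted p of up to 0.0871 for Osi6 and 0.136 for CG7130. All 6 differences use the 2 male day 20 libraries, which deviate from each other, and the part of that deviation in them was not tested.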

How the results depend on the processing

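Of 167 counts of called members or circles under alternatives, 156 stayed within 1.5 times the reported count, and of 1511 single values 1340 were still called, 171 were not and 0 turned round. Between the sexes at day 20, edgeR, DESeq2 and the fit without both male libraries that deviated with GC content called fewer members than the 15 reported. All of them left out male day 20 replicate 1, which leaves 1 male library at that age, so they are not separate checks on these calls. Leaving out 1 library gave 5 to 12 for the sex difference of the change, 18 to 26 for male and 18 to 23 for female heads between days 40 and 20, and 8 to 11 between the sexes at day 30 and at day 40. Called in every alternative were 14 of 25 members in males and 17 of 22 in females. The male bnl circle call (1) became 0 when all circles with a mean of at least 1 were tested, and ranged from 0 to 0 on leaving out libraries. The rule gave 14 members with 3-fold limits, 130 with 1.5-fold, and 80 with a day 0 minimum of 10, and 44 to 54 without 1 library. It gave 34 with a minimum of 10 at day 50 and 39 with a pseudocount of 1, both chosen after seeing the data, as were the minimum mean on libraries after day 0 and leaving out the 2 GC-deviating libraries together. Scaling to total reads shifted the median of all genes by 0.14 to 0.24 between the sexes, by 0.12 between ages in females and by 0.10 in males. Replicate numbers showed no pairing among females or between the sexes, where correlations of same-numbered deviations lay between -0.04 and 0.10. For males of days 20 and 40 they were 0.48 and 0.33. The 2 male day 20 libraries mirror each other, so these are not separate values and do not settle whether male samples were paired. A replicate block gave 25 calls in males, 22 in females, 13, 10 and 10 between the sexes at days 20, 30 and 40, and 6 for the sex difference. Depth limits the members near 0.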
